A study of Mus musculus with 21 samples.

Results

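The genes described here were 10 genes of the NRF2 oxidative stress response, chosen by name: Nfe2l2, Keap1, Nqo1, Gclc, Gclm, Txnrd1, Srxn1, Hmox1, G6pdx and Osgin1. All 10 were found by symbol among the 55400 genes of the deposited table. They were followed by RNA-seq of poly(A) RNA in 21 libraries from mouse embryonic stem cells (ESCs) directed towards spinal motor neurons (MNs). The question behind the series was how the histone demethylase Kdm6b acts on the timing of MN differentiation, and GSKJ4, a small-molecule inhibitor of this enzyme family, was the treatment.

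All 7 groups held 3 libraries, called biological replicates in the labels, of wild-type cells. The untreated groups were D4, D4H8, D5 and D6, where D is the day of differentiation and H8 stands for 8 further hours. The treated groups were D4H8 GSKJ4, D5 GSKJ4 and D6 GSKJ4, with the inhibitor given the day before collection. The GSKJ4 dose, and whether untreated cultures received a vehicle, are not given in the sources used here. All cultures came from a C57BL/6 ESC line kept on mitotically inactive fibroblasts, grew as embryoid bodies, and were patterned with 1 µM retinoic acid and 0.5 µM SAG, an agonist of the hedgehog pathway. From D4 the protocol adds 5 µM DAPT, an inhibitor of Notch cleavage. At D5 it changes to the base medium with DAPT, without retinoic acid and SAG. Stage therefore cannot be told apart from DAPT exposure, nor D6 from the withdrawal of retinoic acid and SAG. The base medium contains β-mercaptoethanol, a thiol reductant, in every group.

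NRF2, the protein of Nfe2l2, is a transcription factor that drives genes of antioxidant defence. In unstressed cells the adaptor KEAP1 hands NRF2 to a ubiquitin ligase for degradation. Oxidants and electrophiles modify cysteines of KEAP1, NRF2 then accumulates, pairs with small MAF proteins and binds antioxidant response elements, while BACH1 and BACH2 compete for the same elements. Because this control acts on protein stability, the mRNA levels of Nfe2l2 and Keap1 do not report NRF2 activity. Among the target genes, Gclc and Gclm encode the catalytic and modifier subunits of the enzyme that starts glutathione synthesis, Txnrd1 encodes cytosolic thioredoxin reductase, Srxn1 encodes sulfiredoxin, which repairs overoxidised peroxiredoxins, Nqo1 encodes a quinone reductase, Hmox1 encodes the inducible heme oxygenase, G6pdx encodes the enzyme that feeds the NADPH-producing pentose phosphate pathway, and Osgin1 encodes an oxidative stress-induced growth inhibitor.

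The start-site windows of the members were searched for the element through which NRF2 acts. RefSeq windows (GRCm38.p6, 250 bases before to 50 after each start) were matched by symbol for 8 members with 10 windows in all, and Gclc and Hmox1 had no entry. The core of the antioxidant response element, TGACNNNGC, was searched on both strands. It was present in windows of 5 members, against 14.0% of the 27025 genes with a window and 12.4% of all 32851 windows. No match was found in the windows of Keap1, Nqo1 and Osgin1, nor in the other two Txnrd1 windows, which says only that these letters are not in those windows. Other forms of the element were not searched. The stretches around the matches are shown because these are the candidate elements, by this core alone, of members whose levels are compared below. They read 5′ to 3′ on the strand of the gene, with the core in capitals. Where the capitals begin with GC, the core lies on the opposite strand.
Nfe2l2, chr2:75704859-75704913, minus strand: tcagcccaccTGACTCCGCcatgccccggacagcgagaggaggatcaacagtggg
Gclm, chr3:122245387-122245467, plus strand: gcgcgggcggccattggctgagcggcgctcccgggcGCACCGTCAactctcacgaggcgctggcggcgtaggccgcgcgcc
Txnrd1, chr10:82859078-82859158, plus strand: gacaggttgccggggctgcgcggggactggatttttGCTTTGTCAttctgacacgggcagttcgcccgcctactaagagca
Srxn1, chr2:152105543-152105569, plus strand: cagtgggcaGCTAGGTCAgagtgagac
G6pdx, chrX:74428893-74428973, minus strand: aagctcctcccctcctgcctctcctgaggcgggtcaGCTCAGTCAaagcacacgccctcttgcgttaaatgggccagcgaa
Counting the start site as position 0, the core begins at -240 in Nfe2l2, at -134 in Gclm, at -92 in Txnrd1, at -57 in G6pdx and at 28, inside the transcribed part, in Srxn1. A related motif, the AP-1 element TGACTCA, which can overlap the core, was found in 5.2% of all windows and, among the members, in those of Srxn1 and Osgin1. The window of Srxn1 held 2 AP-1 matches, which lie outside the stretch shown. The core and AP-1 matches describe sequence and are no measure of binding.

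Library totals ran from 14982115 to 34383842 counts (median 16238435). The library of D5 GSKJ4 replicate 2 stood apart with 39381 genes at 0, against 29339 to 32805 in the others. MN markers followed the labels: the summed FPKM (counts scaled by exon length and library total) of 8 MN genes was 34.6 to 73.7 at D4 and 1884 to 2145 at D6, and 8 of 8 were higher at D6 in edgeR's test. The sum of 7 MN progenitor markers did not separate these stages, at 168 to 248 FPKM at D4 and 173 to 271 at D6. Of these 7 genes, 4 were lower and 2 higher at D6. Of 6 pluripotent cell markers, 1 was lower and 0 higher. Kdm6b itself lay between 14.0 and 46.4 FPKM in all libraries. Its treated and untreated ranges overlapped at D4H8, D5 and D6. An effect of GSKJ4 on this mRNA was not tested, so it does not check the treatment labels. Counting strand is not stated, so reads of overlapping genes on opposite strands cannot be separated. G6pdx shares 418 of its 3080 exonic bases with Ikbkg, Keap1 shares 510 of 4693 with Gm16754, and Gclm shares 296 of 6291 with Gm17494.

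Per exon length, Txnrd1 was the most abundant member in every library, at 27.1 to 117 FPKM, and counts for it reached 15980. Gclc, Hmox1, Nfe2l2, G6pdx, Srxn1 and Keap1 had group means between 7.84 FPKM, for Srxn1 at D6, and 39.8 FPKM, for Hmox1 at D4H8 GSKJ4. Gclm lay lower, with group means of 4.45 to 10.0 FPKM. Nqo1 was scarce, at 0.51 to 4.56 FPKM and 15 to 115 counts. Osgin1 was at or near 0 throughout: 13 of 21 libraries had no count, the highest had 3 counts, and the sum over all libraries was 17. For the libraries at 0, a ceiling of 3 counts corresponds to 0.0494 to 0.0749 FPKM, which covers counting error only. Osgin1 did not pass the filter on low counts in any comparison, and 9 of 10 members were tested.

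**Figure D1:**
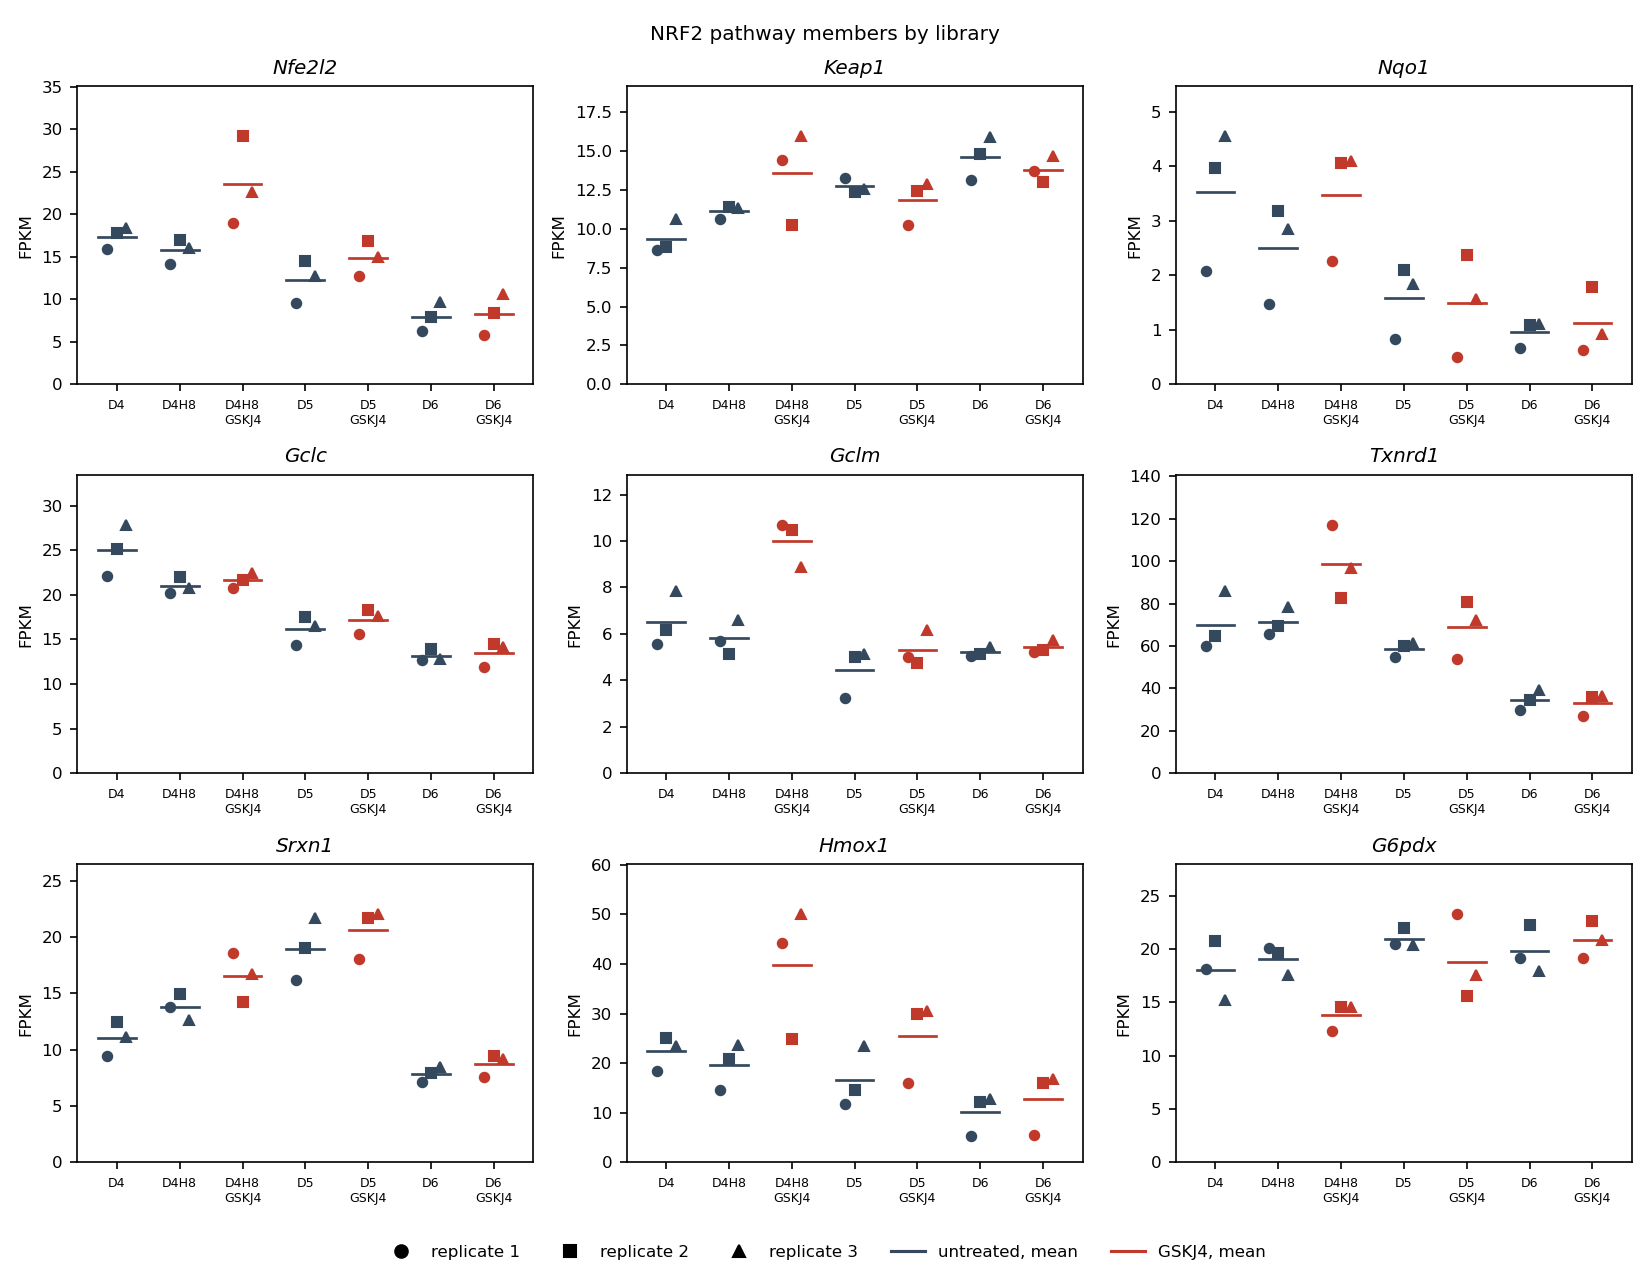
FPKM of the 9 tested members in each of the 21 libraries (x axis, 7 groups; symbols, replicates 1 to 3; bars, group means; red, GSKJ4). Untreated Nfe2l2 falls from a mean of 17.4 at D4 to 7.94 at D6, Keap1 rises from 9.34 to 14.6, Srxn1 is highest at D5, and Gclm in the 3 D4H8 GSKJ4 libraries (8.89 to 10.7) lies above every other library.

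In untreated cultures the transcripts of NRF2 and of most tested target genes among the members fell between D4 and D6, while that of its inhibitor Keap1 rose. Of the 9 tested members, 6 were lower and 1 was higher at D6 (edgeR quasi-likelihood test, Benjamini-Hochberg adjusted p under 0.05). Over all 17519 genes tested in this comparison, 31.0% were lower and 32.9% were higher. The median log2 fold change was -0.86 over the 9 members and -0.04 over all genes. Gclm and G6pdx did not pass the threshold.

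Other lists were lower at D6 too. Of 8 integrated stress response genes, 6 were lower and 1 was higher, and their summed level was 164 to 323 FPKM at D4 and 124 to 137 at D6. Of 4 metallothionein and zinc genes, 2 were lower and 0 higher. Of 7 endoderm markers, 4 were lower and 2 higher, and their sum was 103 to 126 FPKM at D4 and 20.7 to 54.6 at D6, while 8 of 8 MN markers were higher. The part of these shifts in the members' values was not tested.

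Nfe2l2 was at 16.0, 17.7 and 18.4 FPKM in the D4 libraries, at 14.1, 17.0 and 16.1 at D4H8, at 9.58, 14.5 and 12.8 at D5, and at 6.23, 7.96 and 9.64 at D6. All D6 libraries lay below all D4 and D4H8 libraries, whereas D5 and D6 met at 9.58 and 9.64. The log2 fold change of D6 against D4 was -1.07 ± 0.16 (SE, n = 3 per group; adjusted p 3.7e-05). On FPKM, which lacks the scaling of the fit, the mean at D4 was 2.19 times that at D6. Of the single steps, D6 against D5 passed the threshold, at -0.52 ± 0.16 (adjusted p 0.020). This call was lost without D5 replicate 2, D6 replicate 1 or D6 replicate 2 (adjusted p 0.074, 0.090 and 0.056), and D5 against D4H8 passed without D5 replicate 2 (-0.54, adjusted p 0.024).

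Keap1 went the other way. Its D4 libraries were at 8.61, 8.81 and 10.6 FPKM and its D6 libraries at 13.1, 14.8 and 15.9, with no overlap. The D4H8 libraries (10.7, 11.4 and 11.3 FPKM) lay just above those of D4, and the D5 libraries (13.3, 12.4 and 12.6 FPKM) reached the range of D6. The log2 fold change of D6 against D4 was 0.71 ± 0.11 (adjusted p 4.7e-05), and the last step, D6 against D5, was 0.31 ± 0.11 (adjusted p 0.038). This last call was the least firm among the members: it held in 9 of 20 alternative settings, with adjusted p from 0.021 to 0.22, and it was lost without D4 replicate 1, any D4H8 replicate, or replicate 2 or 3 of D5 or D6 (adjusted p 0.051 to 0.14).

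The glutathione synthesis pair behaved unequally. Gclc, the catalytic subunit, was at 22.1, 25.1 and 27.9 FPKM at D4, at 20.2, 22.0 and 20.8 at D4H8, at 14.4, 17.5 and 16.5 at D5 and at 12.7, 14.0 and 12.8 at D6. Its D4H8 and D5 libraries did not overlap, and neither did D5 and D6. The log2 fold change was -0.86 ± 0.10 for D6 against D4 (adjusted p 6.6e-06) and -0.38 ± 0.10 for D5 against D4H8 (adjusted p 0.014). The latter was lost without D4H8 replicate 2 or D5 replicate 1 (adjusted p 0.061 and 0.050, the second just above the threshold). Gclm, the modifier subunit, was at 5.57, 6.16 and 7.86 FPKM at D4 and at 5.06, 5.15 and 5.42 at D6, after a lowest value of 3.23 in D5 replicate 1. Its change of -0.25 ± 0.16 for D6 against D4 had a 95% interval from -0.60 to 0.10 (adjusted p 0.19), and it reached the threshold only under upper-quartile scaling (-0.41, adjusted p 0.046). Without D5 replicate 3, Gclm passed at D5 against D4H8 (-0.54, adjusted p 0.0499). A difference between the changes of Gclc and Gclm was not tested.

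In the thioredoxin branch, Txnrd1 and Srxn1 followed different courses. Txnrd1 was at 59.8, 64.7 and 85.7 FPKM at D4, at 65.6, 69.3 and 78.5 at D4H8, at 54.7, 59.8 and 61.3 at D5, and at 29.8, 34.6 and 39.3 at D6. The D6 libraries lay below all other untreated libraries, and the D6 against D5 change was -0.65 ± 0.13 (adjusted p 0.0015), beside -0.95 ± 0.13 for D6 against D4 (adjusted p 1.8e-05). The D5 against D4H8 change of Txnrd1, -0.27 ± 0.13, passed without D4 replicate 3 (-0.33, adjusted p 0.035).

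Srxn1 first rose and then fell. It was at 9.42, 12.5 and 11.1 FPKM at D4, at 13.8, 14.9 and 12.7 at D4H8, at 16.2, 19.0 and 21.7 at D5 and at 7.15, 7.93 and 8.44 at D6. Each of these 4 groups was separate from its neighbours in time. The log2 fold change of D5 against D4H8 was 0.46 ± 0.13 (adjusted p 0.017), and D6 against D5 was -1.16 ± 0.13 (adjusted p 2.6e-05), the largest single step of any member. The rise to D5 was past the threshold in 16 of 20 alternative settings and was lost without D4H8 replicate 3, D5 replicate 2 or D5 replicate 3 (adjusted p 0.080, 0.065 and 0.13). The net change of D6 against D4 was -0.42 ± 0.13 (adjusted p 0.013), and without D4 replicate 2 it was -0.34 (adjusted p 0.064).

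Nqo1 had the largest net change and the lowest counts of the 9 tested members. It was at 2.07, 3.96 and 4.56 FPKM at D4, at 1.48, 3.17 and 2.84 at D4H8, at 0.83, 2.09 and 1.84 at D5 and at 0.67, 1.09 and 1.11 at D6. The log2 fold change of D6 against D4 was -1.79 ± 0.40 (adjusted p 0.0013), and no single step passed the threshold. Hmox1 was at 18.5, 25.1 and 23.5 FPKM at D4, at 14.7, 20.8 and 23.7 at D4H8, at 11.7, 14.7 and 23.4 at D5 and at 5.25, 12.1 and 12.9 at D6. All D6 libraries were below all D4 libraries, and the D6 against D4 change was -1.09 ± 0.29 (adjusted p 0.0047). The D6 against D5 change of Hmox1, -0.62 ± 0.29, missed the threshold (adjusted p 0.12), and with the replicate number as a block, which pairs these libraries, it was -0.64 ± 0.20 (adjusted p 0.022).

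G6pdx, in the NADPH branch, was at 18.1, 20.8 and 15.2 FPKM at D4, at 20.1, 19.6 and 17.6 at D4H8, at 20.5, 22.0 and 20.4 at D5 and at 19.2, 22.3 and 17.99 at D6. The ranges overlapped except between D4H8 and D5, and the D6 against D4 change of 0.19 ± 0.14 had a 95% interval from -0.11 to 0.50 (adjusted p 0.25). Its D4H8 against D4 and D6 against D5 values were so near 0 that their sign changed under upper-quartile scaling.

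By step, no tested member passed the threshold over the first 8 hours from D4 to D4H8 (0 of 9, with 4.38% of all genes called in either direction in edgeR's test). The 767 calls behind this share became 393, 487 and 350 without D4 replicate 1, D4 replicate 2 and D4H8 replicate 1. The libraries of 3 of 9 members did not overlap at this step, Keap1 and Srxn1 higher and Gclc lower, against 24.5% of all genes on CPM, counts scaled to the library total. At an unadjusted p under 0.05 stood Gclc, at -0.30 (p 0.011), and Srxn1, at 0.28 (p 0.049). Of all 17519 genes, 1902 were at such a p with values above 0 and 992 with values below 0. DESeq2 called none of the members at this step either. From D4H8 to D5, Gclc was lower and Srxn1 was higher, 1 of 9 in each direction, where 10.5% of all genes were lower and 17.2% were higher. From D5 to D6, Nfe2l2, Txnrd1 and Srxn1 were lower and Keap1 was higher, where 15.1% of all genes were lower and 19.2% were higher. These comparisons share untreated groups and are not independent of each other. In bulk RNA, fewer cells of a type and less RNA per cell cannot be told apart.

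The other genes of the pathway were described from lists of 49 genes, of which 47 were tested in the untreated course. At D6 against D4, 21 were lower (44.7%, beside 31.0% of all genes) and 12 were higher (25.5%, beside 32.9%), and their median log2 fold change was -0.28. The thioredoxin and peroxiredoxin list was lower in 7 of 7 genes, from -2.08 to -0.42. It covers the reduction of protein disulfides and peroxides, and it includes Txnip, an inhibitor of thioredoxin. The gene at -2.08 was Prdx1, a cytosolic peroxiredoxin, named after its values were seen. The glutathione list had 7 genes lower and 1 higher of 11, with a median of -0.69. The regulator list, which holds repressors of NRF2 action as well as its partners, had 7 genes higher and 0 lower of 10, with a median of 0.43. The NADPH list had 2 higher and 2 lower of 5, the detoxification list 2 higher and 3 lower of 8 tested, and the heme and iron list 0 higher and 2 lower of 6. Differences of these counts from the shares over all genes were not tested.

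The named genes of these lists were those past the threshold with the largest changes. Bach2, the repressor that competes with NRF2 for its elements, was at 1.37, 1.08 and 1.32 FPKM at D4, at 1.93, 1.90 and 2.07 at D4H8, at 6.15, 5.80 and 5.76 at D5 and at 13.5, 11.9 and 10.2 at D6. It was the one pathway gene called at the first step (0.58 ± 0.15, adjusted p 0.048) and its net change was 3.30 ± 0.16 (adjusted p 1.1e-09). Bach1, its paralog, was at 13.1, 16.8 and 15.7 FPKM at D4 and at 35.5, 30.5 and 30.9 at D6 (1.16 ± 0.14, adjusted p 5.5e-06). Bach1 and Bach2 therefore stood higher in the same libraries in which Nfe2l2 stood lower.

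Idh1, the cytosolic isocitrate dehydrogenase that yields NADPH, had the largest rise outside the regulators. It went from 37.8, 47.3 and 35.7 FPKM at D4 to 199, 186 and 173 at D6 (2.28 ± 0.19, adjusted p 1.5e-07). Me1, malic enzyme, rose in the last step from 7.81, 6.79 and 6.26 to 11.2, 8.62 and 9.23 FPKM (0.59 ± 0.17, adjusted p 0.013). Tkt, transketolase, fell between D4H8 and D5 from 61.3, 55.3 and 53.9 to 28.3, 34.6 and 40.4 FPKM (-0.72 ± 0.13, adjusted p 9.5e-04). Transketolase belongs to the branch of the pentose phosphate pathway that makes no NADPH. Idh1 and Me1, which both yield NADPH, were thus higher at the later day of these comparisons, while G6pdx did not pass the test. At D6 against D4, 2 of the 5 values of the NADPH list lay above 0 and 3 below 0.

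Among the glutathione genes, Gsta4, a glutathione transferase, was at 141, 128 and 117 FPKM at D4 and at 8.03, 21.3 and 18.8 at D6 (-2.96 ± 0.29, adjusted p 8.5e-07). Mgst1, a microsomal transferase, was at 5.28, 5.31 and 3.97 FPKM at D5 and at 0.70, 1.28 and 1.52 at D6 (-1.95 ± 0.28, adjusted p 1.4e-04). Slc7a11, the cystine importer of the cell membrane, was low from the start, at 1.54, 1.15 and 0.14 FPKM at D4 and 0.06, 0.09 and 0.03 at D6 (-3.99 ± 0.79, adjusted p 5.3e-04). At D6, both transferases and the importer were thus below the earlier day named. Gss, which completes glutathione synthesis, went the other way and rose in the last step from 2.85, 2.38 and 2.85 to 4.33, 3.42 and 3.31 FPKM (0.57 ± 0.17, adjusted p 0.018). Gstm1 was lower at D5 than at D4H8 (-0.73 ± 0.22, adjusted p 0.025), with near-identical family members that could share its reads. Cbr3, a carbonyl reductase, was at 0.53, 0.89 and 1.47 FPKM at D4 and 0.00, 0.15 and 0.36 at D6 (-2.40 ± 0.69, adjusted p 0.0077). Cbr3 was scarce at both days. Slc40a1, the iron exporter, was scarce too, at 0.33, 0.40 and 0.62 FPKM at D4H8, at 1.22, 0.79 and 0.91 at D5 and at 0.19, 0.28 and 0.43 at D6. It rose by 1.13 ± 0.30 from D4H8 to D5 (adjusted p 0.012) and changed by -1.61 ± 0.31 from D5 to D6 (adjusted p 0.0015).

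**Figure D2:**
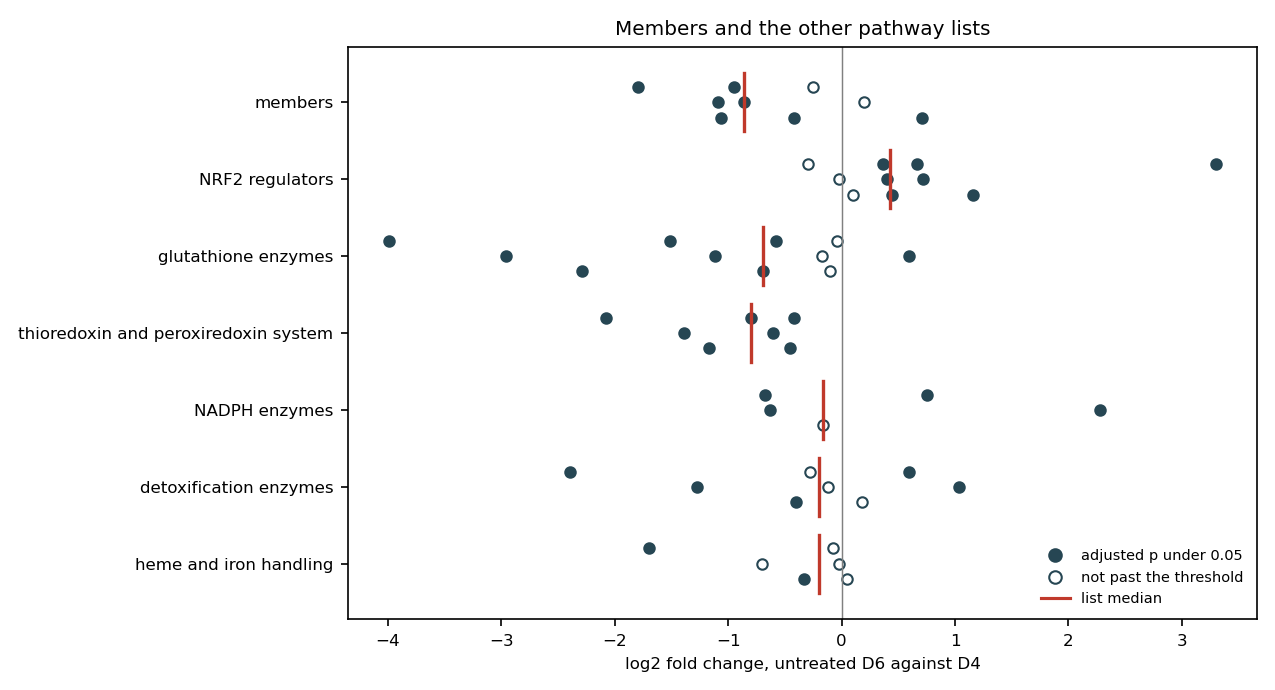
Log2 fold changes of untreated D6 against D4 (x axis) for the 9 tested members and the 47 tested genes of the other pathway lists (y axis; filled, adjusted p under 0.05; red line, list median). The 7 thioredoxin and peroxiredoxin genes all lie left of 0, and the regulators, led by Bach2 at 3.30, lie mostly right of it.

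GSKJ4 gave its largest member differences at D4H8, and none of them passed the threshold in the main test. Of 9 tested members, 0 were called higher and 0 lower, where 2.11% of all 16269 genes were higher and 1.85% were lower (edgeR quasi-likelihood test, adjusted p under 0.05). The median log2 fold change was 0.44 over the members and 0.02 over all genes. At an unadjusted p under 0.05 stood Gclm, Hmox1, Nfe2l2 and Txnrd1 with values above 0 and G6pdx with a value below 0. Of all 16269 genes, 2290 were at such a p with values above 0 and 1795 with values below 0. DESeq2 called Gclm and Hmox1, beside 1128 higher and 837 lower of the 16099 genes it tested. With the replicate number as a block, edgeR called the same members, beside 1235 higher and 1039 lower of 16269 genes. The number of genes called depended on the libraries in the fit: it was 644 in the main test, 43, 50 and 47 without D4H8 replicate 1, 2 and 3, and 541, 1746 and 450 without D4H8 GSKJ4 replicate 1, 2 and 3.

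Gclm was at 5.68, 5.13 and 6.62 FPKM untreated and at 10.7, 10.5 and 8.89 with GSKJ4 at D4H8, with no overlap. Its log2 fold change was 0.76 ± 0.19 (adjusted p 0.058), with a 95% interval from 0.33 to 1.19. Hmox1 was at 14.7, 20.8 and 23.7 FPKM untreated and at 44.3, 24.9 and 50.2 treated. The groups did not overlap, although replicate 2 of the treated group was close to the untreated range. The log2 fold change of Hmox1 was 0.96 ± 0.25 (adjusted p 0.065), with an interval from 0.39 to 1.54. Without D4H8 GSKJ4 replicate 2, Gclm (0.66, adjusted p 0.041), Hmox1 (1.18, adjusted p 0.018) and G6pdx (-0.61, adjusted p 0.040) passed.

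Nfe2l2 itself was at 14.1, 17.0 and 16.1 FPKM untreated and at 19.0, 29.2 and 22.6 with GSKJ4 (0.57 ± 0.22, adjusted p 0.15). Here replicate 2, the lowest treated library for Hmox1, was the highest treated library. Txnrd1 was at 65.6, 69.3 and 78.5 FPKM untreated and at 117, 82.6 and 96.8 treated (0.44 ± 0.18, adjusted p 0.17). G6pdx was at 20.1, 19.6 and 17.6 FPKM untreated and at 12.3, 14.6 and 14.6 treated (-0.50 ± 0.18, adjusted p 0.13), which made D4H8 GSKJ4 its lowest group.

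The treated and untreated libraries of 5 of the 9 members thus did not overlap at D4H8, 4 higher and 1 lower, against 32.9% of all genes tested there on CPM. Keap1 (0.24 ± 0.18), Nqo1 (0.47 ± 0.39) and Srxn1 (0.22 ± 0.18) overlapped. Gclc did too, and at 20.2 to 22.0 FPKM untreated and 20.8 to 22.4 treated its change of 0.01 ± 0.16 had an interval from -0.35 to 0.36. The members of the glutathione synthesis pair therefore stood at 0.76 and 0.01, and this difference was not tested.

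At D5 and D6 the members' treated libraries lay within or across the untreated range. At D5, 0 of 9 members were called (0.00613% of all genes, in edgeR's test) and none had an unadjusted p under 0.05. At D6, 0 of 9 were called where 0% of all 16301 genes were called, and again none had an unadjusted p under 0.05. Over all genes, 377 had such a p with values above 0 and 390 with values below 0 at D5. At D6 these counts were 88 and 134. DESeq2 called no member at either stage. Same-numbered libraries deviated together at D6, and with the replicate number as a block 1.58% of all genes were called there and again 0 of 9 members. No member had treated and untreated libraries apart at D5 or D6, against 11.6% of all genes at D5 and 5.30% at D6. The medians over the members were 0.07 at D5 and 0.05 at D6.

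Hmox1 had the largest values at the later stages too. It was at 11.7, 14.7 and 23.4 FPKM untreated and 16.0, 29.9 and 30.6 treated at D5 (0.57 ± 0.29, 95% interval -0.09 to 1.23). At D6 it was at 5.25, 12.1 and 12.9 FPKM untreated and 5.42, 16.0 and 16.9 treated (0.33 ± 0.45, interval -0.73 to 1.39). Each treated library was above the untreated library of the same number at both stages. Gclm was bounded more closely at D6, at 0.05 ± 0.09 with an interval from -0.17 to 0.27, and so was Gclc, at 0.03 ± 0.10 with an interval from -0.21 to 0.26.

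**Figure D3:**
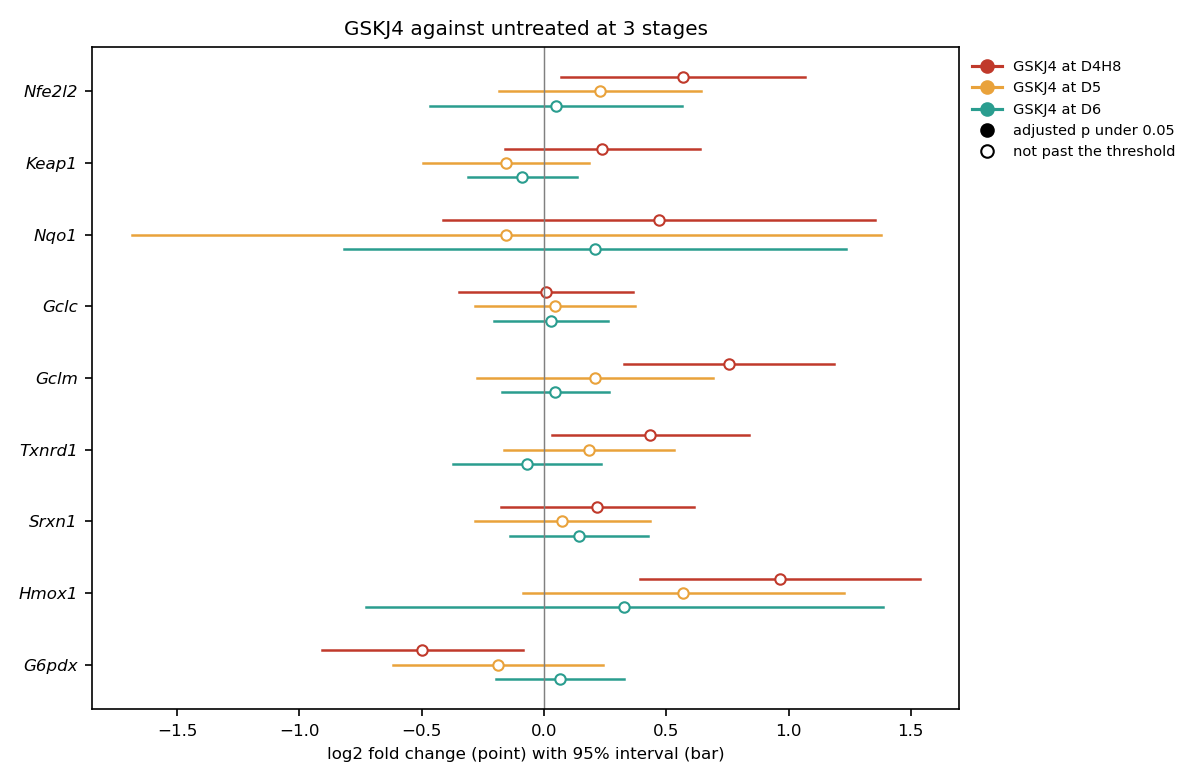
Log2 fold changes of GSKJ4 against untreated (x axis; points, edgeR estimates; bars, 95% intervals; open, adjusted p not under 0.05) of 9 members (y axis) at D4H8, D5 and D6. The intervals of Gclm, Hmox1, Nfe2l2, Txnrd1 and G6pdx at D4H8 leave out 0, and those of all members at D5 and D6 include it.

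Whether the GSKJ4 effect differed between stages was tested by interaction terms over the 18 libraries of these stages. No member passed: 0 of 9 for D5 minus D4H8 (0.249% of all genes called), 0 of 9 for D6 minus D4H8 (0.735%) and 0 of 9 for D6 minus D5 (0%). Leaving out 1 library moved the 45 calls behind the first share to between 16, without D4H8 replicate 1, and 172, without D4H8 GSKJ4 replicate 1, and the 133 behind the second to between 40 and 284, without the same libraries. Gclm had the smallest p among the members, with an effect at D6 that was 0.70 ± 0.25 below that at D4H8 on the log2 scale (difference -0.70, 95% interval -1.22 to -0.18, p 0.011, adjusted p 0.21). Txnrd1 (-0.50 ± 0.22, p 0.034) and G6pdx (0.58 ± 0.25, p 0.032) had an unadjusted p under 0.05 for the same pair of stages, and Keap1 (-0.40 ± 0.19, p 0.047) and Gclm (-0.56 ± 0.25, p 0.037) for D5 minus D4H8. None had one for D6 minus D5. Of all 18103 genes, 1294 had one with values above 0 and 1183 with values below 0 for D6 minus D4H8. For D5 minus D4H8 these counts were 905 and 912. DESeq2 called 0 of 9 members in these 3 comparisons.

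Among the other pathway genes at D4H8, GSKJ4 raised 1 and lowered 2 of 47 tested (2.13% and 4.26%, beside 2.11% and 1.85% of all genes), and at D5 and D6 0 of 46 passed in edgeR's test, with 6 and 0 at an unadjusted p under 0.05. Tkt was at 61.3, 55.3 and 53.9 FPKM untreated and at 34.5, 22.2 and 32.7 treated (-0.98 ± 0.19, adjusted p 0.029). Idh1 was at 75.0, 66.3 and 51.8 FPKM untreated and at 37.7, 37.5 and 32.7 treated (-0.87 ± 0.21, adjusted p 0.0498). Abcc4, an exporter of the plasma membrane, was at 1.99, 2.84 and 3.05 FPKM untreated and at 5.04, 6.90 and 5.15 treated (1.10 ± 0.25, adjusted p 0.046). The median over the 47 genes was -0.07, beside 0.44 for the members, and it covers lists on both sides of 0. The heme and iron list had a median of 0.39 with 5 of 6 values above 0, whereas the thioredoxin and peroxiredoxin list was at -0.54 with 0 of 7 above 0 and the NADPH list at -0.37. Differences between the lists were not tested. At D5 the values of the 46 tested genes of these lists ran from -0.48 to 2.75, with 22 above 0 and 24 below 0. Slc7a11, named here after its values were seen, was scarce at D5, at 0.05 to 0.26 FPKM untreated and 0.79 to 1.13 treated.

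Other stress genes and cell type markers differed between the same D4H8 libraries. Of 8 integrated stress response genes, 3 were higher with GSKJ4 at D4H8, and their summed level was 329 to 408 FPKM treated and 209 to 250 untreated. Of 4 metallothionein and zinc genes, 3 were higher, and their sum was 788 to 2323 FPKM treated and 132 to 388 untreated. Of 7 MN progenitor markers, 3 were lower, with sums of 59.8 to 125 FPKM treated and 239 to 324 untreated, and of 8 MN markers, 3 were lower, with sums of 86.1 to 206 against 207 to 359. The endoderm list summed to 100 to 208 FPKM treated and 74.6 to 104 untreated, and the fibroblast list to 13.1 to 32.0 against 7.43 to 16.4. In each of these lists the treated and untreated sums overlapped. In the main test 0 of 6 tested endoderm genes passed the threshold, with 5 values above 0 and 1 below. Of 9 tested fibroblast genes, 0 passed, with 9 values above 0. The part of these shifts in the members' values was not tested. The 6 macrophage markers summed to 5.04 to 5.72 FPKM treated and 4.26 to 4.69 untreated, and over the 21 libraries Cd68 was at 1.24 to 5.47 FPKM, Aif1 at up to 0.84, Csf1r at up to 0.23, Tyrobp at up to 0.09, Adgre1 at up to 0.02 and Ptprc at up to 0.01.

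The stress lists stood higher at D5 as well, where the members' median was 0.07. The integrated stress response sum was 331 to 462 FPKM treated and 157 to 280 untreated, with no overlap. The median log2 fold change of these 8 genes was 1.18, with 8 values above 0, 7 of them at an unadjusted p under 0.05 and 0 past the threshold. The 4 metallothionein and zinc genes had a median of 1.18 too, with 0 past the threshold and sums of 241 to 689 FPKM treated against 64.9 to 258 untreated, which overlapped. At D6 the medians were 0.32 and 0.56, beside 0.05 for the members, again with 0 genes past the threshold in edgeR's test.

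The replicate 1 libraries stood apart for several members. Nfe2l2, Nqo1 and Gclc were lowest in replicate 1 in 7 of 7 groups, and Hmox1 in 6 of 7, whereas G6pdx was lowest there in 2. The summed level of 6 pluripotent cell markers was also lowest in replicate 1 in 7 of 7 groups. At D6 this sum was 12.2, 100 and 90.0 FPKM in replicates 1 to 3, where Nqo1 was at 0.67, 1.09 and 1.11 and Hmox1 at 5.25, 12.1 and 12.9. At D4 the sum was 122, 292 and 224 FPKM, where Nqo1 was at 2.07, 3.96 and 4.56. The part of such cells in the members' levels was not tested. Over replicates 2 and 3 alone, an alternative added after seeing the data, 7 members were again called at D6 against D4, 6 lower and 1 higher.

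**Figure D4:**
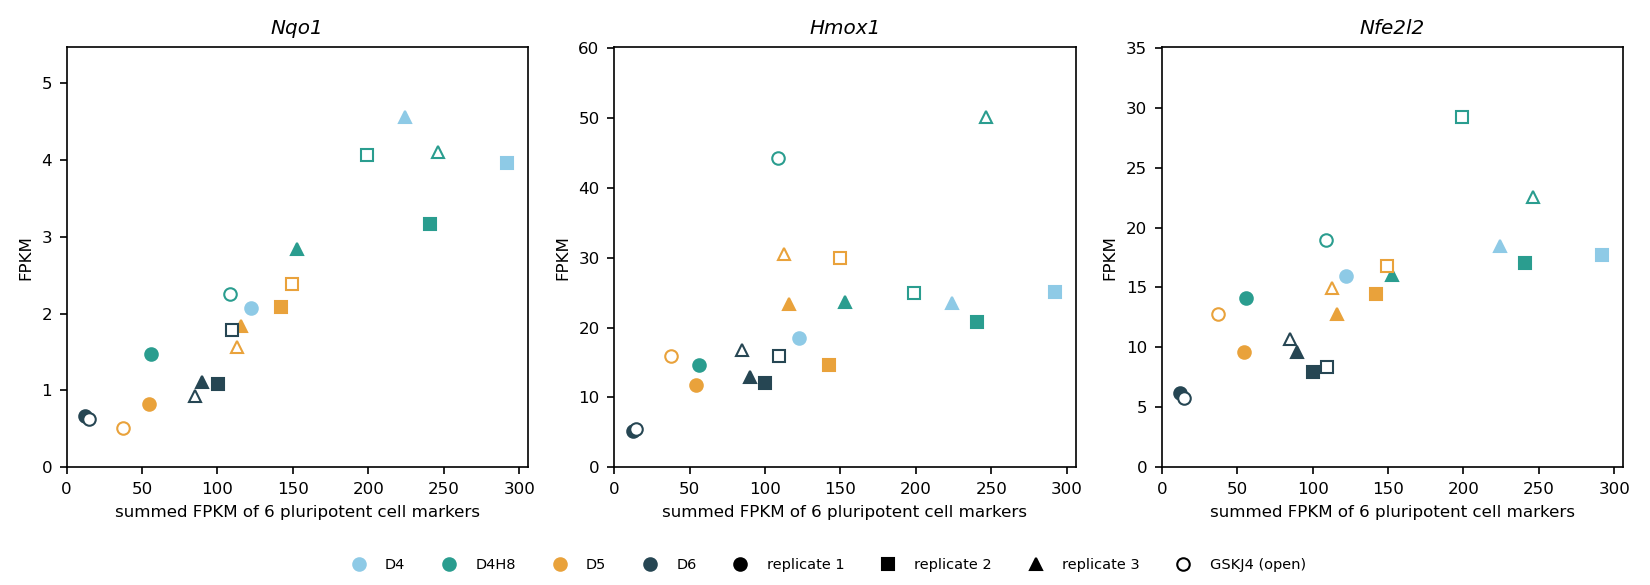
FPKM of Nqo1, Hmox1 and Nfe2l2 (y axes) against the summed FPKM of 6 pluripotent cell markers (x axes) in 21 libraries (colour, stage; symbol, replicate; open, GSKJ4). The D6 replicate 1 libraries, untreated and treated, sit at the lower left, at sums of 12.2 and 14.8.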

How the data were processed

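The authors trimmed reads with Fastp, mapped them to mm10 (Ensembl annotation) with HISAT2, sorted with SAMtools and counted fragments per gene with HTSeq, and deposited the counts, together with FPKM values. The submitters' processing notes also name DESeq2. The deposited FPKM differed from values recomputed from the counts, exonic lengths and library totals by at most 0.005. Gene IDs were matched to symbols for 55140 of 55400 genes. Exon overlaps came from GENCODE M21 (GRCm38).

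Counts were tested with edgeR 4.0.16 (quasi-likelihood F-test, TMM scaling, filterByExpr with a minimum count of 10, Benjamini-Hochberg adjustment over all genes tested) and called at an adjusted p under 0.05. Each GSKJ4 comparison used its 6 libraries, the untreated comparisons one fit of 12 libraries, and the differences between stages one fit of 18. Intervals are 95% intervals of the fit. Overlap between groups was judged on CPM, counts scaled to the library total. Same-numbered libraries deviated together at D6 with and without GSKJ4 (correlations 0.66, 0.32 and 0.45) and at D5 and D6 untreated (0.31, 0.14 and 0.23). At D4H8 with and without GSKJ4 the correlations were 0.44, 0.07 and 0.26. The blocked fit is given for these comparisons where it changed a call. DESeq2 1.42.0, RLE and upper-quartile scaling, other filters, the replicate block, a single fit of the 21 libraries and leaving out 1 library at a time were the alternatives. The edgeR fit was tested on simulated data first. The members and all gene lists were chosen with earlier results of these data known. The text names all members, and of the other pathway lists up to 3 genes in each direction per comparison with the largest change past the threshold; stress and marker lists are given as counts and sums.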

Additional observations from a re-analysis of the deposited data

How the results depend on the processing

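Every call of the untreated D6 against D4 comparison kept its direction under all 20 alternatives, and 178 of 180 values of the 9 tested members kept their side of the threshold. The exceptions were Srxn1, lost without D4 replicate 2, and Gclm, gained with upper-quartile scaling. In this comparison the median of all genes was -0.04 in the main test and -0.19 with upper-quartile scaling. The number of members called with GSKJ4 at D4H8, 0 in the main test, was 2 with DESeq2, 2 with no filter, 2 with the replicate block and 1 in one fit over all libraries, and 0 to 3 when 1 library was left out. Over all genes, calls higher and lower there were 1128 and 837 of 16099 with DESeq2 and 1229 and 1058 of 31166 with no filter. They were 1235 and 1039 of 16269 with the block and 1058 and 990 of 18349 in one fit. Without D4H8 GSKJ4 replicate 2 they were 998 and 748 of 16694. At D5 against D4H8 the 2 calls became 0 with no filter and 1 over replicates 2 and 3 alone, and 1 to 3 when 1 library was left out. At D6 against D5 the 4 calls became 2 in one fit over all libraries and 2 to 4 when 1 library was left out. The cause was not tested.

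Calls over all genes differed by more than 1.5 times for GSKJ4 at D4H8 (644, and 72 to 2287 under the other settings), at D5 (1, and 0 to 128), at D6 (0, and 0 to 257, the latter with the block), for D4H8 against D4 (767, and 422 to 1319, or 350 to 912 when 1 library was left out), for D5 against D4H8 (4861, and 3218 to 5419) and for the stage differences (45, and 47 to 351; 133, and 140 to 626; 0, and 0 to 13). For D4H8 against D4 the share of calls that were higher was 92.7%, and 80.0% with no filter. The replicate number as a block called 5 members at D6 against D5, Hmox1 being the addition, beside 3645 higher and 3008 lower of all 17519 genes. At D4H8, deviations of same-numbered treated and untreated libraries from the group mean had correlations of 0.44, 0.07 and 0.26. With GSKJ4 at this stage the block called Gclm (adjusted p 0.033) and Hmox1 (adjusted p 0.015). It changed no other member call. Of the 47 other pathway genes tested with GSKJ4 at D4H8, the block called 2 higher and 6 lower (4.26% and 12.8%). Over all 16269 genes it called 1235 higher and 1039 lower. The main test called 1 and 2 of the pathway genes, Mafk, Txn1, Txnip, Rbx1 and Sod1 being the additions of the block.

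Values that changed sign were not called in any setting. Gclc with GSKJ4 at D4H8 was -0.010 with no filter and -0.0022 with at least 10 counts in every library. Txnrd1 at D4H8 against D4 was 0.00016 in one fit over all libraries. G6pdx was -0.0050 at D4H8 against D4 and -0.049 at D6 against D5 with upper-quartile scaling, and -0.0069 at D6 against D5 in one fit over all libraries. Over replicates 2 and 3 alone, the effect at D5 minus that at D4H8 was -0.023 for Gclc and -0.067 for G6pdx, and that at D6 minus D5 was -0.13 for Keap1. The Gclc effect at D6 minus D4H8 was -0.012 with DESeq2 and -0.012 with RLE scaling, and at D6 minus D5 it was -0.030 with DESeq2, -0.030 with RLE scaling, -0.021 with upper-quartile scaling, -0.027 with at least 10 counts in every library and -0.026 in one fit over all libraries.

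Leaving out 1 library at a time, values crossed 0 in these ranges. With GSKJ4 at D4H8, Gclc ran from -0.053 to 0.052. At D5, Nqo1 ran from -0.66 to 0.24, Gclc from -0.014 to 0.10 and Srxn1 from -0.011 to 0.16. At D6, Nfe2l2 ran from -0.15 to 0.23, Nqo1 from -0.29 to 0.47, Gclc from -0.017 to 0.085, Txnrd1 from -0.14 to 0.032 and G6pdx from -0.015 to 0.15. At D4H8 against D4, Txnrd1 ran from -0.091 to 0.13 and G6pdx from -0.087 to 0.11, and at D6 against D5 G6pdx ran from -0.041 to 0.12. For D5 minus D4H8, Gclc ran from -0.016 to 0.092. For D6 minus D4H8, Nqo1 ran from -0.75 to 0.016, Gclc from -0.024 to 0.095 and Srxn1 from -0.12 to 0.028. For D6 minus D5, Nfe2l2 ran from -0.36 to 0.019, Nqo1 from -0.10 to 0.87, Gclc from -0.047 to 0.063, Gclm from -0.25 to 0.016 and Hmox1 from -0.52 to 0.13. Depth limits Osgin1 most, at 0 to 3 counts a library, and Nqo1 had 15 to 115.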
